A study of Mus musculus with 16 samples.

Results

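The axonal RNA of motoneurons that lack Hnrnpr was compared with that of +/+ motoneurons, using the 4 axonal Hnrnpr-/- and the 4 axonal +/+ libraries among the 16 libraries of the study. The other 8 libraries hold the somatodendritic compartment, that is cell bodies and dendrites, of the same 2 genotypes. The 8 axonal libraries were chosen by compartment and genotype as given in the sample titles. Hnrnpr-/- mice carried a constitutive deletion of the first exons of the gene made with CRISPR/Cas9, were backcrossed to C57Bl/6 mice, and lack the protein in every cell of the culture, not in motoneurons alone. Motoneurons of both genotypes were enriched from the lumbar spinal cord at embryonic day 13 by panning on an antibody against the neurotrophin receptor p75NTR and cultured in microfluidic chambers, where axons pass through narrow channels into a compartment of their own. CNTF at 5 ng/ml was present in both compartments and BDNF at 20 ng/ml in the axonal compartment alone. RNA isolated from the axonal compartment was turned into cDNA with a full-length, oligo(dT)-primed kit for very small amounts of RNA, tagmented and sequenced from 1 end. In such bulk samples, fewer axons or cells of a type and less RNA per axon or cell cannot be told apart.

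hnRNP R is an RNA-binding protein of the heterogeneous nuclear ribonucleoprotein family. Most members of this family package and splice pre-mRNA in the nucleus, while hnRNP R is also found in the axons and growth cones of motoneurons, where it is known to bind β-actin mRNA, the noncoding RNA 7SK and the spinal muscular atrophy protein SMN. Axons hold ribosomes and a set of mRNAs of their own, rich in transcripts for ribosomal proteins, mitochondrial proteins and the cytoskeleton, and local translation of these mRNAs supplies growth cones and synapses at a distance from the cell body. The question of the comparison is whether axonal RNA levels change when hnRNP R is absent.

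The 8 axonal libraries held 26892208 to 34864151 counts each and at least 1 count on 22700 to 25801 genes. Values are CPM, counts on a gene per 1000000 counts, after scaling by library total and the trimmed mean of M values (TMM). Where a gene has no read in a library, up to 3 counts remain possible, which is 0.0867 to 0.109 CPM and covers counting error only, since copies made in the PCR carried no molecular identifiers. In +/+ replicate 2, 22700 genes were detected, the fewest of the 8, its median Spearman correlation with the other +/+ libraries was 0.910 across genes, and it held the highest of the 8 values for 20.7% of the genes tested. Hnrnpr-/- replicate 1 came next on all 3 of these measures, with 23843 genes detected, a median correlation of 0.918 within its genotype and the highest value for 19.1% of the genes. The mitochondrial 16S ribosomal RNA mt-Rnr2 reached 13717 CPM in +/+ replicate 2 and 1131 to 1359 CPM in the other +/+ libraries. Tests are therefore given for all 8 libraries, called the 8-library fit, and without +/+ replicate 2, called the 7-library fit, while genes described by their levels alone have the value of that library among the others. The 2 fits share 7 libraries and are not independent of each other. Chat and Mnx1, which define motoneurons, did not pass the filter on low counts in axons, and further markers are given after the gene families.

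Hnrnpr itself, on chromosome 4 from 136038230 to 136086758 on the plus strand (GRCm39), checked the labels. Its counts were 4808, 15608, 4422 and 3922 reads in +/+ and 38, 32, 27 and 18 reads in Hnrnpr-/- axons, which is 174, 451, 152 and 122 CPM in +/+ and 1.14, 1.01, 0.863 and 0.644 CPM in Hnrnpr-/- axons. The groups were far apart, and +/+ replicate 2 was far above the other +/+ libraries. The log2 fold change was -7.93 (SE 0.56, 95% interval -9.21 to -6.65, adjusted p = 0.00514 from the edgeR quasi-likelihood test with Benjamini-Hochberg adjustment) in the 8-library fit. In the 7-library fit it was -7.34 (SE 0.29, adjusted p = 1.58e-04 from edgeR). Leaving out Hnrnpr-/- replicate 2 gave a fold change of -7.98 on the log2 scale and an edgeR adjusted p of 0.0691, so that no gene passed the threshold in that setting. The counts are per gene and do not show on which exons the 18 to 38 remaining reads per Hnrnpr-/- library lay. Syncrip, which encodes hnRNP Q, the closest paralogue of hnRNP R, had 80.3, 182, 122 and 101 CPM in +/+ and 87.0, 119, 147 and 121 CPM in Hnrnpr-/- axons. The groups overlapped, and the log2 fold change was -0.03 (SE 0.28, 95% interval -0.67 to 0.60, unadjusted p = 0.905), or 0.23 in the 7-library fit, where its sign turned.

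Hnrnpr was the only gene past an adjusted p of 0.05. In the 8-library fit it was 1 of 18957 genes tested (0.00528%), and in the 7-library fit 1 of 19340 (0.00517%). At an unadjusted p under 0.05, 123 genes or 0.649% differed in the 8-library fit, 32 higher (0.169%) and 91 lower (0.48%) in Hnrnpr-/- axons. In the 7-library fit the count was 80 genes or 0.414%, with 28 higher (0.145%) and 52 lower (0.269%). Both shares were below the 5% that the threshold gives when no gene differs. Groups that did not overlap at all were found for 111 genes (0.586%) with 8 libraries, 54 higher (0.285%) and 57 lower (0.301%), and for 204 genes (1.05%) with 7 libraries, 93 higher (0.481%) and 111 lower (0.574%). The median log2 fold change over all genes tested was 0.02 in either fit. On the 8 libraries DESeq2 with and without shrinkage and limma voom with library weights each called Hnrnpr alone at the adjusted threshold, and 321, 421 and 154 genes at an unadjusted p under 0.05.

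**Figure D1:**
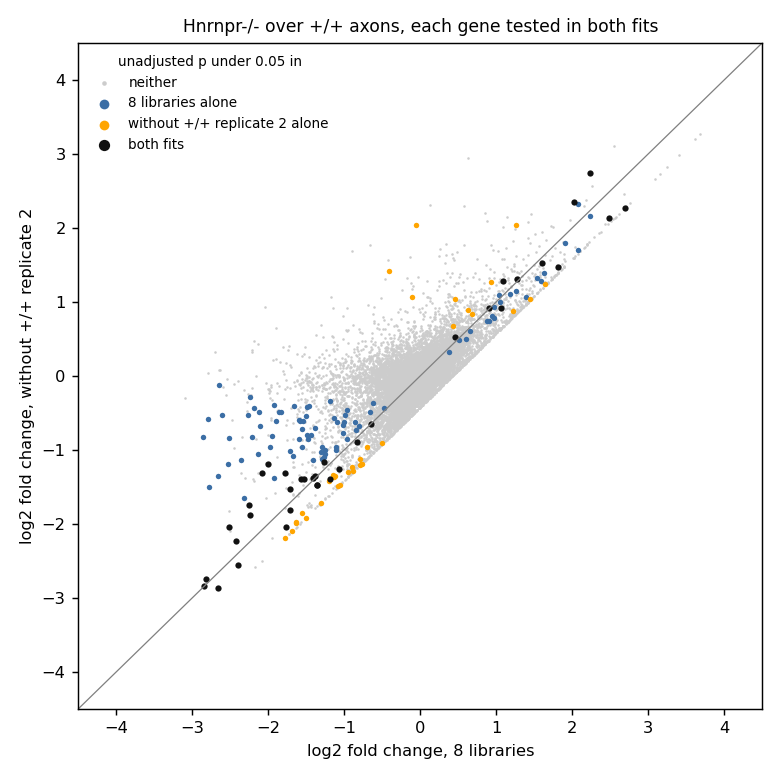
Log2 fold change of Hnrnpr-/- against +/+ axons without +/+ replicate 2 (vertical axis) against the log2 fold change with all 8 libraries (horizontal axis), for the 18929 genes tested in both fits other than Hnrnpr. The larger blue, orange and black points are genes with an unadjusted p under 0.05: 36 in both fits, 85 in the 8-library fit alone and 35 in the 7-library fit alone. 1 gene lies outside the axes.

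The width of the intervals sets what these libraries can show. The 95% interval of the log2 fold change lay wholly within 1 unit of 0, that is within a 2-fold difference either way, for 8534 genes or 45% of those tested in the 8-library fit and for 8910 or 46.1% in the 7-library fit. By expression, this share was 0.692% of genes under 1 CPM, 20.0% between 1 and 10 CPM, 63.9% between 10 and 100 CPM, 76.8% between 100 and 1000 CPM and 66.7% of the 51 genes of 1000 CPM and over in the 8-library fit. The corresponding shares with 7 libraries were 0.354%, 21.2%, 67.3%, 77.4% and 70.6%. For most transcripts under 10 CPM a 2-fold difference was thus not excluded, whereas for most transcripts of 10 CPM and over the interval excluded one. The median standard error of a log2 fold change was 0.39 in both fits.

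Genes with an unadjusted p under 0.05 in both fits numbered 37 with Hnrnpr included, 11 of them higher and 26 lower without hnRNP R. They comprised 22 protein-coding genes, 9 long noncoding RNAs, 3 pseudogenes, 1 transcribed pseudogene, 1 miRNA and 1 miscellaneous RNA. Low transcripts made up most of them, since 30 of the 37 averaged under 5 CPM and 23 under 1 CPM. The filter on low counts keeps a gene that passes it in the libraries of a single genotype. Part of the separation of such low genes can therefore come from the filter. The next values are for the 6 besides Hnrnpr that averaged at least 5 CPM, and each had an adjusted p of 1.00 from edgeR.

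Actn2, on chromosome 13 from 12284312 to 12355613, encodes α-actinin-2, an actin crosslinker of muscle Z-discs and dendritic spines. It had 2.75, 0.289, 1.23 and 2.29 CPM in +/+ replicates 1 to 4 and 7.18, 4.19, 3.64 and 21.8 CPM in Hnrnpr-/- replicates 1 to 4. Every Hnrnpr-/- value was above every +/+ value, and Hnrnpr-/- replicate 4 was the highest of all. The log2 fold change was 2.49 (SE 0.81, 95% interval 0.65 to 4.33, unadjusted p = 0.0137), and 2.13 (SE 0.73, 95% interval 0.44 to 3.83, unadjusted p = 0.0202) in the 7-library fit. Without Hnrnpr-/- replicate 4 it was 1.599 on the log2 scale with an unadjusted p of 0.0528. Slc14a1, on chromosome 18 from 78143306 to 78185334, encodes a urea transporter that astrocytes also express. It had 17.5, 10.6, 16.6 and 16.2 CPM in +/+ replicates 1 to 4 and 38.1, 28.4, 42.2 and 18.3 CPM in Hnrnpr-/- replicates 1 to 4. The groups were again apart, although Hnrnpr-/- replicate 4 at 18.3 CPM lay close to the highest +/+ value of 17.5 CPM. Its log2 fold change was 1.06 (SE 0.31, 95% interval 0.36 to 1.76, unadjusted p = 0.00736), and 0.92 (SE 0.31, 95% interval 0.21 to 1.63, unadjusted p = 0.0180) in the 7-library fit. Its unadjusted p stayed under 0.05 with any of the 8 libraries left out, between 0.00204 and 0.0238.

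Vwa1, which encodes an extracellular matrix protein with a von Willebrand factor A domain, had 9.95, 7.57, 6.11 and 5.67 CPM in +/+ replicates 1 to 4 and 15.6, 10.8, 8.60 and 19.8 CPM in Hnrnpr-/- replicates 1 to 4. The ranges overlapped, and the log2 fold change was 0.90 (SE 0.34, 95% interval 0.13 to 1.68, unadjusted p = 0.0272) or 0.92 (unadjusted p = 0.0444) in the 7-library fit. Gtf3c3 encodes a subunit of TFIIIC, which places RNA polymerase III on tRNA genes. It had 22.1, 25.2, 18.1 and 21.9 CPM in +/+ replicates 1 to 4 and 31.2, 32.6, 30.2 and 24.98 CPM in Hnrnpr-/- replicates 1 to 4. Only +/+ replicate 2 overlapped the Hnrnpr-/- range, and the log2 fold change was 0.45 (SE 0.20, 95% interval 0.0047 to 0.89, unadjusted p = 0.0481) and 0.53 (SE 0.20, 95% interval 0.07 to 0.98, unadjusted p = 0.0299) in the 7-library fit.

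Among lower transcripts, Hmcn1 encodes hemicentin-1, a large extracellular matrix protein. It had 5.39, 3.70, 5.35 and 13.4 CPM in +/+ replicates 1 to 4 and 2.63, 2.08, 4.28 and 3.22 CPM in Hnrnpr-/- replicates 1 to 4. The Hnrnpr-/- values lay below all +/+ values but that of replicate 2, and +/+ replicate 4 was the highest. The log2 fold change was -1.19 (SE 0.47, 95% interval -2.24 to -0.13, unadjusted p = 0.0312) and -1.40 (SE 0.45, 95% interval -2.43 to -0.36, unadjusted p = 0.0144) in the 7-library fit. Without +/+ replicate 4 it was -0.65 with an unadjusted p of 0.124. Plekha5 encodes a pleckstrin homology domain protein that binds phosphoinositides. It had 19.8, 22.7, 24.1 and 23.7 CPM in +/+ replicates 1 to 4 and 20.5, 10.1, 12.8 and 13.9 CPM in Hnrnpr-/- replicates 1 to 4. Hnrnpr-/- replicate 1 lay within the +/+ range and the other 3 below it. The log2 fold change was -0.66 (SE 0.26, 95% interval -1.24 to -0.07, unadjusted p = 0.0324) and -0.65 (unadjusted p = 0.0488) in the 7-library fit. An unadjusted p under 0.05 was kept when single libraries were left out in 7 of 8 cases for Actn2, 8 of 8 for Slc14a1, 4 of 8 for Vwa1, 2 of 8 for Gtf3c3, 4 of 8 for Hmcn1 and 3 of 8 for Plekha5.

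The other 30 of these genes were low, and the next 4 were named after their values were seen. Tnfrsf11b, which encodes the decoy receptor osteoprotegerin, had 3.73, 2.37, 4.08 and 5.98 CPM in +/+ and 1.77, 1.61, 1.79 and 2.51 CPM in Hnrnpr-/- axons. Opn1sw, a cone opsin, had 0.940, 1.33, 1.89 and 2.51 CPM in +/+ and 0.659, 0.441, 0.703 and 0.215 CPM in Hnrnpr-/- axons. Cdkn2a, which encodes a cyclin-dependent kinase inhibitor that blocks the cell cycle, had 0.434, 0.491, 1.65 and 1.05 CPM in +/+ and 0, 0.158, 0.192 and 0.215 CPM in Hnrnpr-/- axons. In these 3 genes the Hnrnpr-/- values lay below the +/+ values, except for Tnfrsf11b, where +/+ replicate 2 overlapped. Cldn2, a tight-junction protein, had 0.253, 0.433, 0.206 and 0.0310 CPM in +/+ and 0.778, 0.536, 2.52 and 0.573 CPM in Hnrnpr-/- axons, with all Hnrnpr-/- values above all +/+ values. The log2 fold changes were -1.07 and -1.26 in the 8-library and the 7-library fit for Tnfrsf11b, -1.71 and -1.81 for Opn1sw, -2.66 and -2.87 for Cdkn2a and 2.23 and 2.74 for Cldn2. Without Hnrnpr-/- replicate 3, its highest library, Cldn2 differed by 1.44 (unadjusted p = 0.1000). An unadjusted p under 0.05 was kept when single libraries were left out in 6 of 8 cases for Tnfrsf11b, 8 of 8 for Opn1sw, 7 of 8 for Cdkn2a and 5 of 8 for Cldn2. All 4 had an adjusted p of 1.00 from edgeR. Cdkn2a passed the filter on low counts through the +/+ libraries and Cldn2 through the Hnrnpr-/- libraries. The separation of these genes is thus partly set by the filter.

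**Figure D2:**
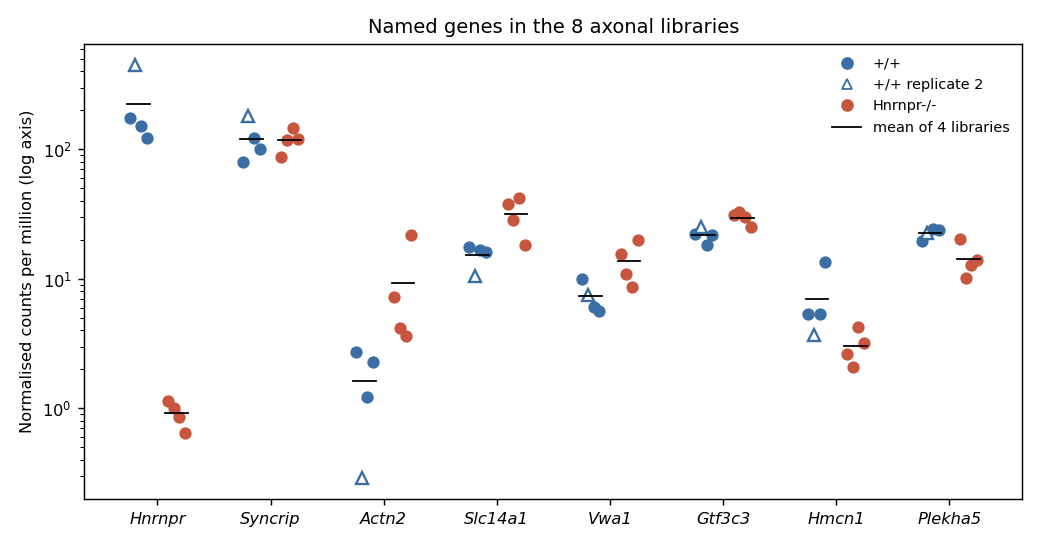
CPM of 8 genes in each axonal library on a shared logarithmic axis, with the genes along the horizontal axis, +/+ and Hnrnpr-/- side by side and the mean of 4 libraries as a black bar. +/+ replicate 2 is the open triangle. Hnrnpr lies at 122 to 451 CPM in +/+ and at 0.644 to 1.14 CPM in Hnrnpr-/- axons, and the groups of Actn2 and Slc14a1 do not overlap.

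Many of the genes with an unadjusted p under 0.05 in the 8-library fit had their extreme value in +/+ replicate 2. Of the 91 lower genes, 74 had their highest value of the 8 in that library, and of the 32 higher genes 18 had their lowest value there. Long noncoding RNAs contributed 0 higher and 34 lower genes among 2423 tested, or 1.4% against 0.649% of all genes, and 30 of the 34 were highest in +/+ replicate 2. In the 7-library fit 3 were higher and 16 lower among 2585 tested, or 0.735% against 0.414% of all genes, with 9 of the 34 still lower. Other settings on the 8 libraries gave a less one-sided split. It was 12 higher and 28 lower with limma voom, 41 and 122 with DESeq2, and 95 and 120 with no filter on low counts. The median log2 fold change of long noncoding RNAs was -0.11 and -0.08 in the 2 fits, where that of protein-coding genes was 0.03 and 0.03. The tagmented cDNA does not keep the strand of the RNA, so that a noncoding RNA cannot be told apart from a gene on the other strand. Of the 2423 long noncoding RNAs tested, 64% overlap the span of a protein-coding gene on the opposite strand, and 19 of the 34 lower ones did. Genes above the 90th percentile of summed exon length numbered 1 higher and 28 lower of 1896 tested in the 8-library fit, or 1.53% against 0.649% of all genes, and 17 of these 28 were among the long noncoding RNAs just counted. In the 7-library fit 1 was higher and 4 lower of 1919, or 0.261% against 0.414% of all genes, and 2 of the 4 were long noncoding RNAs.

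Malat1, an abundant nuclear noncoding RNA of splicing-factor domains, had 379.8, 2269, 961 and 960.1 CPM in +/+ replicates 1 to 4 and 559, 406, 566 and 540.2 CPM in Hnrnpr-/- replicates 1 to 4. The +/+ libraries spread widely, and replicate 1 lay below all Hnrnpr-/- libraries. The log2 fold change was -1.14 (SE 0.47, 95% interval -2.20 to -0.08, unadjusted p = 0.0374), and -0.57 (SE 0.33, 95% interval -1.35 to 0.21, unadjusted p = 0.131) in the 7-library fit. Over the 13 nuclear long noncoding RNAs tested, the median was -0.46 with 1 lower (Malat1) and 0 higher at an unadjusted p under 0.05, and 0.01 with 0 in the 7-library fit. Their median in +/+ replicate 2 was 1.03 log2 units above the other +/+ libraries. Rn7sk, the 7SK RNA that hnRNP R binds, is not polyadenylated and was low, with 0.470, 9.91, 0.377 and 0.744 CPM in +/+ and 0.120, 0.599, 0.543 and 6.01 CPM in Hnrnpr-/- axons. Its log2 fold change was -0.67 (unadjusted p = 0.640) and turned to 1.76 (unadjusted p = 0.192) in the 7-library fit, and it was -2.72 (unadjusted p = 0.0833) without Hnrnpr-/- replicate 4, the other high library. The 16 hosts of small nucleolar RNAs had medians of -0.32 and -0.10 with 0 called. The miRNA gene Mir568, named after its values were seen, had the smallest unadjusted p after Hnrnpr in the 8-library fit. Its counts were 12, 32, 14 and 12 reads in +/+ and 2, 4, 4 and 4 reads in Hnrnpr-/- axons, with no overlap and log2 fold changes of -2.24 and -1.88. Mir568 passed the filter on low counts through the +/+ libraries alone, so that the lack of overlap is partly set by the filter. Mir568 lies within the span of Zbtb20, and these few reads, from a kit that does not capture mature miRNAs, cannot be told apart from reads of that host.

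In the gene families that follow, a gene is said to be called where its unadjusted p was under 0.05 in the fit named. Transcripts of the translation machinery had median differences near 0. None of 92 ribosomal protein genes, 60 initiation and elongation factors (61 in the 7-library fit) or 34 aminoacyl-tRNA synthetases passed an unadjusted p of 0.05 in either fit, where 0.649% and 0.414% of all genes did. At such shares most lists of this size hold no called gene. A count of 0 therefore sets no list apart, here or below. The median log2 fold change of ribosomal protein genes was -0.03 and 0.01, and the 95% interval lay within 1 log2 unit of 0 for 82 and 87 of the 92 genes. Rplp0, the stalk protein of the large subunit, had 532, 530.3, 731 and 432 CPM in +/+ and 596, 480.5, 655 and 727 CPM in Hnrnpr-/- axons, with a log2 fold change of 0.14 (SE 0.22, 95% interval -0.36 to 0.64, unadjusted p = 0.531) and 0.12 in the 7-library fit. Initiation and elongation factors had medians of 0.07 and 0.03. Eef1a1, which delivers aminoacyl-tRNA to the ribosome, had 1397, 1469, 1929 and 1156 CPM in +/+ and 1151, 1385, 1876 and 1715 CPM in Hnrnpr-/- axons, with log2 fold changes of 0.04 and 0.04. Eif4g1, the scaffold of the cap-binding complex, had 249, 199, 283 and 304 CPM in +/+ and 273, 278, 328 and 276 CPM in Hnrnpr-/- axons, and the helicase Eif4a1 450.0, 381, 688 and 373 CPM in +/+ and 344, 509, 684 and 640.2 CPM in Hnrnpr-/- axons. Their log2 fold changes were 0.16 and 0.20, or 0.05 and 0.11 in the 7-library fit, with overlap of the groups for both. The aminoacyl-tRNA synthetases had the lowest summed level in +/+ replicate 2, at 3601 CPM against 4357 to 4488 CPM in the other +/+ libraries, and medians of 0.13 and 0.08. Aars, the alanyl-tRNA synthetase, had 381, 279.6, 307 and 348 CPM in +/+ and 454, 390.2, 367 and 349 CPM in Hnrnpr-/- axons and differed by 0.25 (SE 0.18, 95% interval -0.15 to 0.65, unadjusted p = 0.196) on the log2 scale, or 0.18 in the 7-library fit.

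The lists of energy metabolism held no called gene, where 0.649% and 0.414% of all genes were called in the 8-library and the 7-library fit. No nuclear-encoded subunit of the respiratory chain and ATP synthase among 84, no mitochondrial ribosomal protein among 78 and no glycolytic enzyme among 17 passed an unadjusted p of 0.05 in either fit. Respiratory chain transcripts had a median log2 fold change of -0.06, and 0.06 in the 7-library fit. For 51 of the 84 the highest of the 8 values was that of +/+ replicate 2. With 7 libraries the interval lay within 1 log2 unit of 0 for 80 of the 84 genes, and with 8 libraries for 68. Atp5b, the catalytic subunit of ATP synthase, ran from 2429.8 to 3164 CPM in +/+ and from 2787 to 3408 CPM in Hnrnpr-/- axons. Mitochondrial ribosomal proteins had medians of 0.04 and 0.04, with 75 and 77 of 78 intervals within 1 unit. The glycolytic enzymes had medians of 0.06 and -0.02, and their summed level varied only 1.35-fold over the 8 libraries. Gapdh, a glycolytic dehydrogenase, had 1273, 1223, 2064 and 1196 CPM in +/+ and 1299.5, 1280.1, 2023 and 1386 CPM in Hnrnpr-/- axons. The mRNAs encoded by the mitochondrial genome were not analysed here. The mitochondrial rRNA mt-Rnr2 had 1192, 13717, 1131 and 1359 CPM in +/+ and 3037, 790.3, 387 and 1829 CPM in Hnrnpr-/- axons, with a log2 fold change of -1.53 (SE 0.98, 95% interval -3.76 to 0.71, unadjusted p = 0.157) that turned to 0.30 in the 7-library fit.

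Cytoskeletal transcripts showed no change past the adjusted threshold. The 14 tubulins tested had log2 fold changes of -0.13 to 0.97 in the 8-library fit, from Tubb3 to Tuba8, with a median of 0.17, and of 0.05 to 0.55 with a median of 0.13 in the 7-library fit. Tuba1a, the main α-tubulin of developing neurons, had 6605, 6431, 6159 and 5541 CPM in +/+ replicates 1 to 4 and 8035, 6326, 5849.6 and 5261 CPM in Hnrnpr-/- replicates 1 to 4. The groups overlapped and differed by less than the spread between replicates, with a log2 fold change of 0.04 (SE 0.20, 95% interval -0.42 to 0.50, unadjusted p = 0.839), or 0.06 in the 7-library fit. Tubb4a, a β-tubulin, had 186, 155, 108 and 162 CPM in +/+ and 264, 239.7, 75.3 and 208 CPM in Hnrnpr-/- axons and differed by 0.37 (SE 0.37, 95% interval -0.47 to 1.20, unadjusted p = 0.346) on the log2 scale, or 0.37 in the 7-library fit. Without Hnrnpr-/- replicate 1, its highest library, this was 0.19 (unadjusted p = 0.635), and without replicate 3, its lowest, 0.64 (unadjusted p = 0.0206). Actb, the β-actin mRNA that hnRNP R is known to bind, had 7497, 5440.1, 18654 and 8315 CPM in +/+ replicates 1 to 4 and 6126, 7629, 15862 and 9847 CPM in Hnrnpr-/- replicates 1 to 4. Replicate 3 of either genotype stood above all other libraries, and the log2 fold change was -0.02 (SE 0.44, 95% interval -1.03 to 0.99, unadjusted p = 0.972), or -0.22 in the 7-library fit. These same 2 libraries were high in pericyte and smooth muscle markers, and the part of this content in the values of Actb was not tested. Of 38 actins and actin regulators, 1 was lower at an unadjusted p under 0.05 in the 8-library fit and 0 in the 7-library fit. This was Enah, a protein of growth-cone filopodia named after its values were seen, with 40.0, 95.6, 72.7 and 49.2 CPM in +/+ and 42.7, 43.5, 41.1 and 39.3 CPM in Hnrnpr-/- axons and log2 fold changes of -0.63 (unadjusted p = 0.0470) and -0.37 (unadjusted p = 0.139).

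Microtubule-associated proteins and stathmins numbered 36, with 0 called and medians of 0.04 and 0.10. Stmn2, a microtubule regulator of growing axons, had 431, 575, 136 and 465 CPM in +/+ replicates 1 to 4 and 1024, 412, 77.7 and 167 CPM in Hnrnpr-/- replicates 1 to 4. Mapt, which encodes tau, had 434, 596, 151 and 454 CPM in +/+ replicates 1 to 4 and 870.5, 435, 64.0 and 198 CPM in Hnrnpr-/- replicates 1 to 4. Both genes were highest in Hnrnpr-/- replicate 1 and lowest in replicate 3 of either genotype, and the Hnrnpr-/- values spanned the whole +/+ range. The log2 fold changes were 0.07 (SE 0.75, 95% interval -1.63 to 1.76, unadjusted p = 0.932) for Stmn2 and -0.06 (SE 0.71, 95% interval -1.68 to 1.56, unadjusted p = 0.933) for Mapt, and intervals of this width neither show nor exclude a 2-fold difference. With 7 libraries they were 0.29 and 0.18. Without Hnrnpr-/- replicate 1 they were -0.87 and -0.81. Macf1, a large linker of microtubules and actin, had 112, 231, 188 and 164 CPM in +/+ replicates 1 to 4 and 127, 126, 169 and 87.6 CPM in Hnrnpr-/- replicates 1 to 4. Its log2 fold change was -0.45 (SE 0.27, 95% interval -1.07 to 0.17, unadjusted p = 0.138), and -0.28 (SE 0.27, 95% interval -0.91 to 0.36, unadjusted p = 0.338) in the 7-library fit, with overlapping groups. It was -0.61 (unadjusted p = 0.0486) without +/+ replicate 1 and -0.29 (unadjusted p = 0.319) without Hnrnpr-/- replicate 4.

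Neurofilaments and growth-cone proteins, 10 genes tested, had medians of 0.09 and 0.28, and their summed level varied 5.20-fold over the 8 libraries. Gap43, a growth-cone protein, ranged over 163 to 566 CPM in +/+ and 94.4 to 913 CPM in Hnrnpr-/- axons. The 64 motor subunits, kinesins, dynein and dynactin, had medians of 0.03 and 0.08. Kif1a, a kinesin of synaptic vesicle precursors, ranged over 445 to 1665 CPM in +/+ and 337 to 1529 CPM in Hnrnpr-/- axons. The 27 genes that the study grouped as cytoskeletal had 0 called, with medians of 0.07 and 0.10 and a range of -0.63 to 0.48 and -0.28 to 0.54.

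A set of 18 mRNAs encodes proteins that the study examined in axons, namely stathmins, tubulins, actin, tau, Macf1, the enzymes of O-GlcNAc cycling and components of the translation machinery. None had an unadjusted p under 0.05 in either fit. Their median log2 fold change was 0.04, from -0.45 for Macf1 to 0.37 for Tubb4a, and in the 7-library fit 0.06, from -0.28 to 0.37 for these same genes. The 95% interval lay within 1 log2 unit of 0 for 11 of the 18 in the 8-library fit and 12 in the 7-library fit. The half-width of the interval ran from 0.42 to 1.86 log2 units over these mRNAs, and from 0.39 to 2.18 with 7 libraries.

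Synaptic and excitability genes were measured with wide errors. The 37 genes of synaptic vesicles and the active zone had 0 called, with medians of 0.02 and 0.15, and only 3 of the 37 intervals lay within 1 log2 unit of 0 in either fit. Their summed level differed 5.25-fold between the highest and the lowest of the 8 libraries. Of 78 potassium channel genes 1 was called lower in the 8-library fit, where 0.48% of all genes were. Of 79 in the 7-library fit Kcnmb1, another gene, was called lower, where 0.269% of all genes were. The former was Kcnmb3, a β subunit of the large-conductance calcium-activated channel named after its values were seen, with 2.24, 15.8, 2.61 and 1.24 CPM in +/+ and 1.92, 1.20, 0.799 and 1.15 CPM in Hnrnpr-/- axons. A single library, +/+ replicate 2, held the high value, and the log2 fold change of -2.11 (unadjusted p = 0.0298) became -0.68 (unadjusted p = 0.172). Sodium and calcium channel genes, 34 and 35 tested, had 0 called and medians of -0.10 and -0.06. Among 40 ligand-gated receptor subunits (42 with 7 libraries), Grin3b alone was lower in the 8-library fit. Grin3b encodes the NMDA receptor subunit GluN3B, which spinal motoneurons are known to express, and it was named after its values were seen. It had 2.21, 3.99, 3.12 and 3.41 CPM in +/+ replicates 1 to 4 and 1.50, 2.08, 1.98 and 1.72 CPM in Hnrnpr-/- replicates 1 to 4. All Hnrnpr-/- values lay below all +/+ values at a level of a few CPM. The log2 fold change was -0.81 (SE 0.33, 95% interval -1.56 to -0.05, unadjusted p = 0.0388), and -0.68 (SE 0.33, 95% interval -1.45 to 0.09, unadjusted p = 0.0774) in the 7-library fit. The 66 protocadherins, adhesion proteins of neurons, had 0 called and medians of -0.05 and 0.03.

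Ligands and receptors of axon growth came next. The 64 guidance genes (semaphorins, plexins, ephrins, slits and netrin with their receptors) had 0 called and medians of -0.07 and -0.05. Neurotrophic factors and receptors, 17 and 18 tested, had 0 called and medians of 0.13 and 0.17. Ntrk2, the receptor for the BDNF supplied to the axons, had 371, 353, 215 and 324 CPM in +/+ and 257, 446, 245 and 303 CPM in Hnrnpr-/- axons. Il6st, the signalling subunit of the CNTF receptor, had 148, 74.2, 115 and 187 CPM in +/+ and 151, 159, 199.8 and 137 CPM in Hnrnpr-/- axons. Neither group stood apart. Ret, the GDNF receptor kinase, named after its values were seen, had 19.3, 7.48, 6.14 and 27.8 CPM in +/+ and 68.6, 18.8, 1.69 and 9.02 CPM in Hnrnpr-/- axons with log2 fold changes of 0.69 and 0.46, and -0.63 without Hnrnpr-/- replicate 1. The 23 receptors and targets of BMP, activin and TGF-β had 0 called, with medians of -0.06 and -0.07. In the retinoic acid pathway 0 of 16 genes were called in the 8-library fit and 1 of 17 was higher in the 7-library fit. The latter was Stra6, a receptor for vitamin A uptake, named after its values were seen. Its counts were 0, 0, 1 and 0 reads in +/+ and 23, 13, 37 and 0 reads in Hnrnpr-/- axons, so that Hnrnpr-/- replicate 4 had none. Stra6 did not pass the filter on low counts in the 8-library fit, where it was not tested. It passed in the 7-library fit through Hnrnpr-/- libraries alone, so that its call there is partly set by the filter.

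The 6 lists that follow, most of them of RNA-binding proteins, held no called gene other than Hnrnpr. Of 24 hnRNP genes, Hnrnpr was the only one past an unadjusted p of 0.05 in either fit, and the median of the family was -0.03 and 0.07. Hnrnpk, an RNA-binding protein with KH domains, ranged over 1049 to 1771 CPM in +/+ and 1016 to 1606 CPM in Hnrnpr-/- axons. Hnrnpa2b1, which binds mRNAs transported in axons and dendrites, ranged over 598 to 1857 CPM in +/+, with the top in replicate 2, and 502 to 1176 CPM in Hnrnpr-/- axons. The 31 other mRNA-binding proteins of axons or linked to amyotrophic lateral sclerosis had medians of -0.13 and 0.03, and +/+ replicate 2 was 0.56 log2 units above the other +/+ libraries in their median. The 9 genes of the SMN complex, which assembles spliceosomal particles, had medians of 0.04 and 0.09, with 8 of 9 intervals within 1 log2 unit of 0 in both fits. Spliceosome and SR proteins, 45 genes, had medians of -0.03 and 0.03. 7SK and its protein partners, 8 genes, had medians of -0.01 and 0.11. The 9 genes of O-GlcNAc cycling had medians of 0.11 and 0.12. Ogt, which attaches O-GlcNAc, had 167, 218, 143 and 119 CPM in +/+ and 171, 177, 168 and 106 CPM in Hnrnpr-/- axons, and Oga, which removes it, 118, 114, 70.2 and 245 CPM in +/+ and 195, 171, 92.0 and 134 CPM in Hnrnpr-/- axons. The groups of both genes overlapped.

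Genes of protein and lipid turnover also had medians near 0. The 49 proteasome genes had medians of 0.06 and 0.02, with 47 and 45 intervals within 1 log2 unit of 0. The 73 heat shock proteins and chaperonins had medians of 0.04 and 0.02. Hspa8, the constitutive Hsc70 chaperone, had 1819, 1375, 1734 and 1607 CPM in +/+ and 1987, 1699.6, 2099 and 1724 CPM in Hnrnpr-/- axons. The 34 lysosomal genes had medians of 0.10 and 0.07, and the 26 genes of sterol and fatty acid synthesis 0.0012 and 0.08. None of these passed an unadjusted p of 0.05 in either fit. Among 56 Rab GTPases, regulators of vesicle traffic, 0 were called with 8 libraries and Rab19 was lower with 7. Rab19, named after its values were seen, had 0.687, 0.0289, 1.27 and 0.961 CPM in +/+ and 0.359, 0.158, 0.224 and 0.644 CPM in Hnrnpr-/- axons, where the low +/+ value is that of replicate 2. Its log2 fold change was -1.08 (unadjusted p = 0.257), -1.49 (unadjusted p = 0.0372) with 7 libraries and -0.69 (unadjusted p = 0.512) without +/+ replicate 3.

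The lists of stress genes held no called gene in either fit, where 0.649% and 0.414% of all genes were called. The 20 targets of the integrated stress response, which follows phosphorylation of eIF2α, had medians of 0.15 and 0.05. Their summed level varied 2.02-fold over the 8 libraries and was highest in +/+ replicate 3 and Hnrnpr-/- replicate 3. Immediate early and axon injury genes, 23 and 24 tested, had medians of 0.17 and 0.02. The 11 metallothioneins and NRF2 targets had medians of 0.09 and 0.03. The 28 genes linked to amyotrophic lateral sclerosis had 0 called and medians of 0.04 and 0.06.

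**Figure D3:**
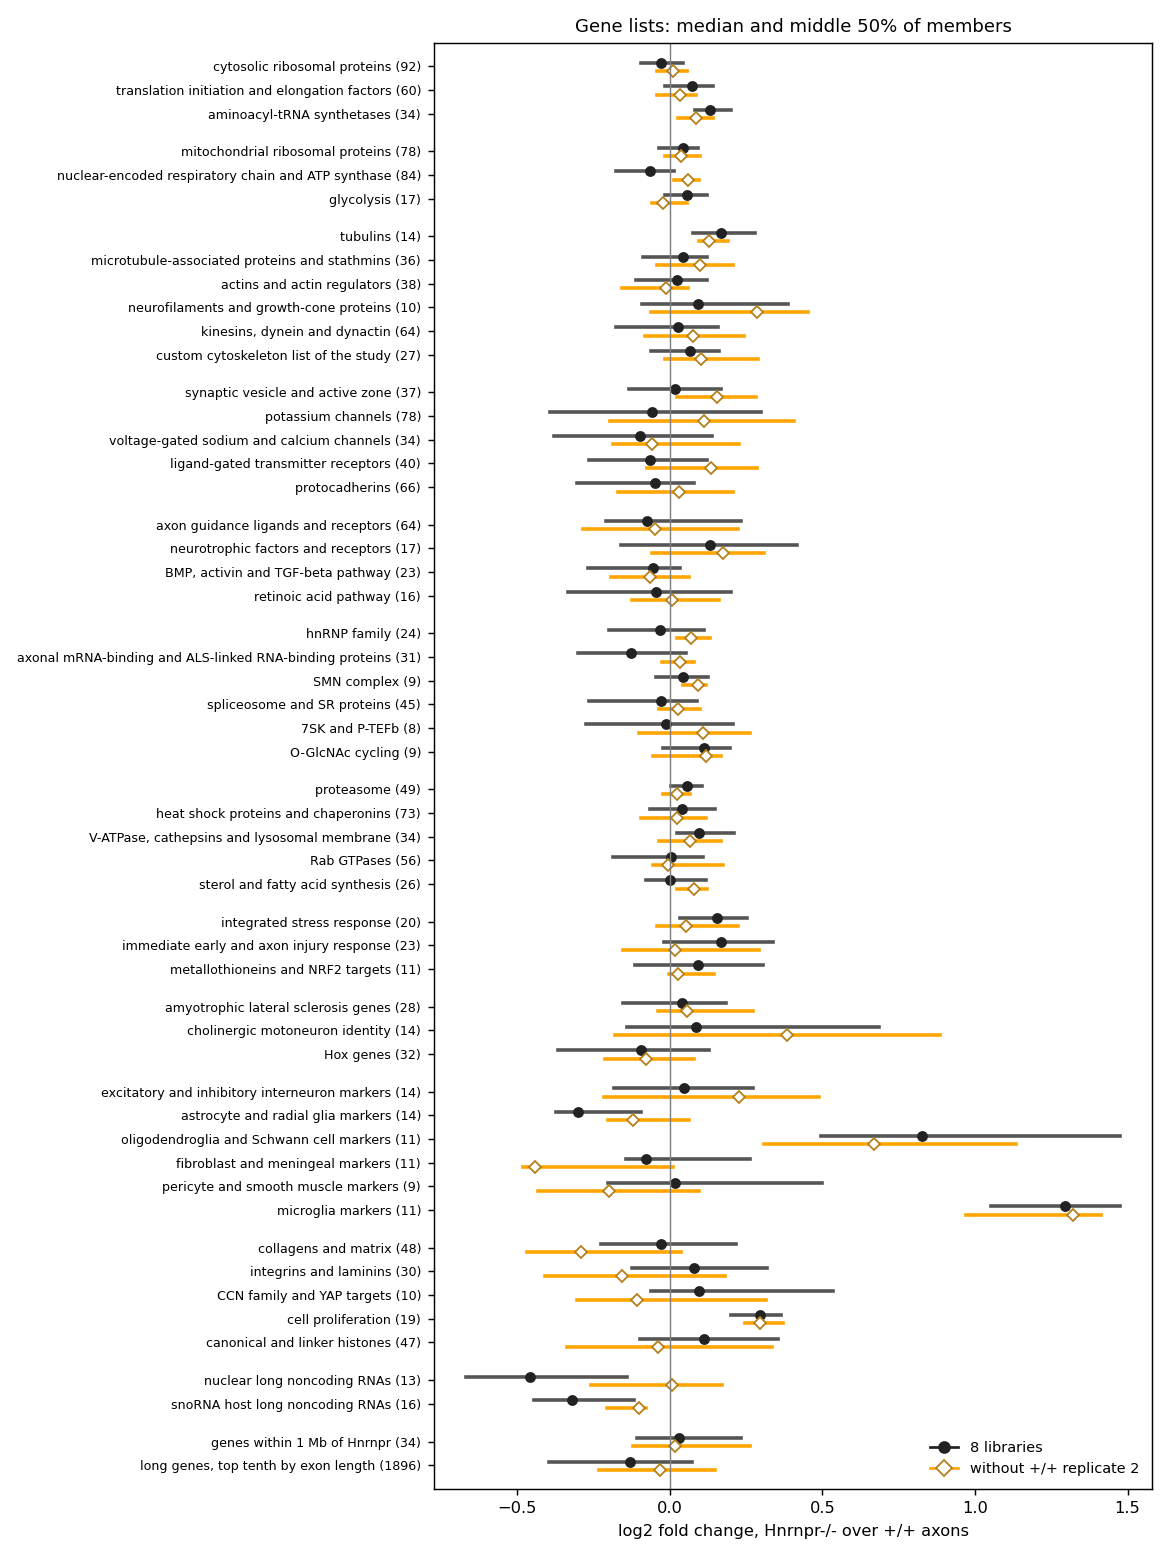
Median log2 fold change of Hnrnpr-/- against +/+ axons for 53 gene lists, with the middle 50% of each list as a line, in the 8-library fit and in the 7-library fit without +/+ replicate 2. Most medians lie close to 0, and those of microglia markers (1.29 and 1.32) and of oligodendroglia and Schwann cell markers (0.83 and 0.67) lie farthest to the right in both fits among cell type lists with at least 11 genes tested.

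The labelled cell type was checked against its markers. Of 18 genes of cholinergic motoneuron identity 14 were tested, with 0 called and medians of 0.09 and 0.38. Slc18a3, the vesicular acetylcholine transporter, had 1.12, 0.953, 0.206 and 0.0310 CPM in +/+ and 2.31, 2.65, 0.128 and 1.22 CPM in Hnrnpr-/- axons, and the transcription factor Isl1 1.66, 5.40, 0 and 0.310 CPM in +/+ and 3.38, 1.29, 0.799 and 1.07 CPM in Hnrnpr-/- axons. Chat and Mnx1, which define the cells, did not pass the filter on low counts. Slc5a7, the choline transporter, named after its values were seen, had 1.74, 10.4, 0.686 and 5.36 CPM in +/+ and 3.17, 2.08, 0.639 and 2.83 CPM in Hnrnpr-/- axons, with log2 fold changes of -1.06 and -0.25. The 32 Hox genes tested had 0 called and medians of -0.09 and -0.08.

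Markers of other cells were present in the axonal libraries and varied between libraries of the same genotype. Microglia markers summed to 252, 90.8, 22.4 and 68.3 CPM in +/+ replicates 1 to 4 and 21.5, 77.3, 24.3 and 847 CPM in Hnrnpr-/- replicates 1 to 4. Hnrnpr-/- replicate 4 alone held 847 CPM, and the other Hnrnpr-/- libraries 21.5 to 77.3 CPM. The median of 11 tested markers was 1.29 (12 and 1.32 in the 7-library fit), with 0 called, and -1.86 without Hnrnpr-/- replicate 4. Oligodendroglia and Schwann cell markers summed to 1467, 619, 813 and 378 CPM in +/+ replicates 1 to 4 and 350.1, 1906, 510.0 and 1945 CPM in Hnrnpr-/- replicates 1 to 4. These sums were highest in +/+ replicate 1 and Hnrnpr-/- replicates 2 and 4. The myelin gene Mbp, named after its values were seen, had 80.6, 19.9, 55.8 and 12.3 CPM in +/+ and 11.1, 326, 37.3 and 248 CPM in Hnrnpr-/- axons. Its log2 fold change was 1.88 (SE 1.01, 95% interval -0.41 to 4.18, unadjusted p = 0.0956), and 1.65 in the 7-library fit. Without Hnrnpr-/- replicate 1 it was 2.27 (unadjusted p = 0.0257) and without Hnrnpr-/- replicate 2 it was 1.23 (unadjusted p = 0.266).

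Pericyte and smooth muscle markers summed to 2664, 1367, 11863 and 4922 CPM in +/+ replicates 1 to 4 and 2535, 2162, 10652 and 4015 CPM in Hnrnpr-/- replicates 1 to 4, highest in replicate 3 of either genotype. Most of these sums came from Acta2, smooth muscle actin, with 10330 CPM in +/+ replicate 3 and 9300 CPM in Hnrnpr-/- replicate 3. Of the 9 markers tested, 0 were called in the 8-library fit and Myh11, smooth muscle myosin, was lower in the 7-library fit. Myh11, named after its values were seen, had 9.04, 0.116, 15.2 and 28.6 CPM in +/+ and 5.24, 1.36, 4.09 and 10.6 CPM in Hnrnpr-/- axons, and its log2 fold change was -1.31 (unadjusted p = 0.271), or -1.73 (unadjusted p = 0.0344) with 7 libraries. Without +/+ replicate 4, its highest library, Myh11 differed by -0.61 (unadjusted p = 0.621). Fibroblast and meningeal markers summed to 924, 201, 630.4 and 2206 CPM in +/+ replicates 1 to 4 and 884, 260.3, 856 and 2143 CPM in Hnrnpr-/- replicates 1 to 4, lowest in +/+ replicate 2. Interneuron markers summed to 293, 364, 50.8 and 303 CPM in +/+ replicates 1 to 4 and 692, 293, 36.9 and 73.7 CPM in Hnrnpr-/- replicates 1 to 4, and replicate 3 of either genotype was the lowest of its group. Astrocyte and radial glia markers summed to 5945, 7875, 6554 and 4527 CPM in +/+ replicates 1 to 4 and 3822, 6264, 6604 and 5826 CPM in Hnrnpr-/- replicates 1 to 4. No gene of these 3 lists was called in either fit. The medians were -0.08 and -0.44 for fibroblasts, 0.05 and 0.23 for interneurons and -0.30 and -0.12 for astrocytes and radial glia. Endothelial markers summed to 53.2 to 263 CPM in +/+ and 49.7 to 149.8 CPM in Hnrnpr-/- axons, while Pecam1, Cdh5 and Cldn5 did not pass the filter. Of 9 erythroid markers only Alas2 was tested. The groups overlapped in each of these sums. The part of this content in the differences between genotypes was not tested.

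Matrix, adhesion and proliferation genes also differed between libraries of 1 genotype. Of 48 collagens and matrix genes (49 with 7 libraries) 0 were called in the 8-library fit, with medians of -0.03 and -0.29. Col2a1, the collagen of cartilage, was lower in the 7-library fit and was named after its values were seen. It had 48.2, 26.8, 441 and 144 CPM in +/+ and 63.9, 68.7, 52.5 and 27.2 CPM in Hnrnpr-/- axons, with +/+ replicate 3 far above the rest, and log2 fold changes of -1.64 (unadjusted p = 0.0704) and -1.99 (unadjusted p = 0.0195). Without +/+ replicate 3 its log2 fold change was -0.46 (unadjusted p = 0.449), and without +/+ replicate 1 it was -1.94 (unadjusted p = 0.0400). Among 30 integrins and laminins Itga9, an integrin for tenascin, was higher in the 8-library fit alone and was named after its values were seen. It had 6.76, 4.74, 5.28 and 4.43 CPM in +/+ and 8.29, 10.6, 5.94 and 19.2 CPM in Hnrnpr-/- axons, and log2 fold changes of 1.05 (unadjusted p = 0.0257) and 1.00 (unadjusted p = 0.0540). Without Hnrnpr-/- replicate 4, which was high in microglia and oligodendroglia markers, Itga9 differed by 0.65 (unadjusted p = 0.0924), and without +/+ replicate 4 by 0.98 (unadjusted p = 0.0619). The 10 CCN and YAP target genes had 0 called and medians of 0.10 and -0.11. The 19 proliferation genes summed to 2812, 2666, 3779 and 1001 CPM in +/+ replicates 1 to 4 and 666, 3740.0, 5199 and 2927 CPM in Hnrnpr-/- replicates 1 to 4, with 0 called and medians of 0.29 and 0.30. Low sums were those of +/+ replicate 4 and Hnrnpr-/- replicate 1, and the groups overlapped. The 47 histone genes had medians of 0.11 and -0.04.

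**Figure D4:**
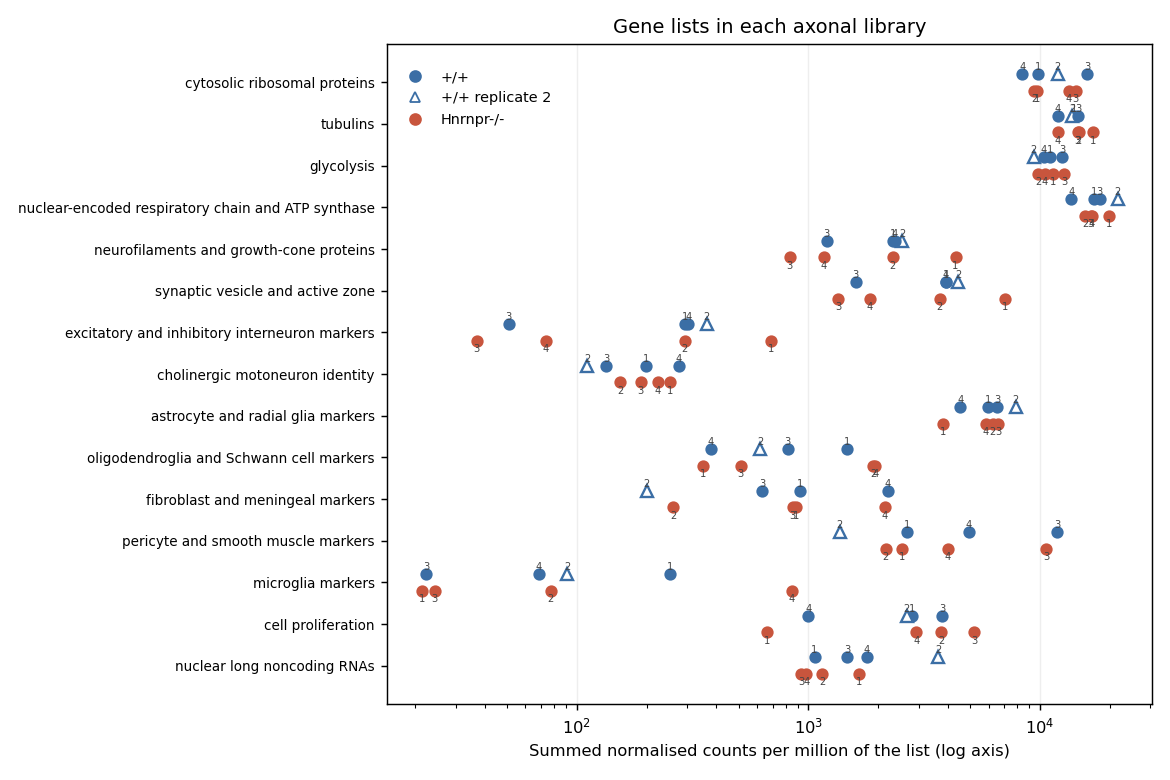
Summed CPM of 15 gene lists in each axonal library on a logarithmic axis, +/+ and Hnrnpr-/- side by side, with the replicate number beside each point. The translation, tubulin and glycolysis lists hold a narrow range over the 8 libraries, whereas microglia markers range from 21.5 to 847 CPM, and the groups overlap in every list shown.

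Sex-linked RNAs differed between libraries of the same genotype. Ddx3y, on the Y chromosome, had 20.9, 4.54, 0.137 and 63.0 CPM in +/+ and 32.4, 0.0630, 0.160 and 0.0358 CPM in Hnrnpr-/- axons, and Xist, which is expressed from the inactive X chromosome, 23.6, 202, 67.5 and 0.186 CPM in +/+ and 25.8, 46.1, 39.9 and 37.3 CPM in Hnrnpr-/- axons. Xist was near the floor in +/+ replicate 4, while +/+ replicates 1 and 2 and Hnrnpr-/- replicate 1 held both RNAs. Among the genes within 1 Mb of Hnrnpr, 34 were tested (35 with 7 libraries), 0 were called and the medians were 0.03 and 0.02.

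Whether the loss of Hnrnpr acted on axonal RNA in another way than on somatodendritic RNA was tested with the interaction of genotype and compartment in all 16 libraries. Of 19964 genes 0 passed the adjusted threshold in edgeR, while 251 had an unadjusted p under 0.05. Without +/+ replicate 2 these counts were 0 and 236 of 20328. This model gives each gene the same spread in both compartments, which need not hold. Actb, for example, had 9977 ± 5910 CPM in +/+ axons and 3880 ± 263 CPM in the +/+ somatodendritic compartment (SD, n = 4 each). It also treats axonal and somatodendritic libraries as independent, although both may come from the same chambers. The p-values and SEs of the interaction rest on these assumptions. Hnrnpr was lower in both compartments of Hnrnpr-/- motoneurons, with a log2 fold change of -7.88 (SE 0.47) in the somatodendritic compartment and a difference between the axonal and somatodendritic effects of -0.03 (SE 0.53, unadjusted p = 0.957). Without +/+ replicate 2 this difference was 0.55 (SE 0.34, unadjusted p = 0.133). In the somatodendritic compartment it had 204 ± 27.1 CPM (SD, n = 4) in +/+ and 0.861 ± 0.305 CPM (SD, n = 4) in Hnrnpr-/- motoneurons, against 225 ± 152 CPM in +/+ (SD, n = 4) and 0.913 ± 0.212 CPM in Hnrnpr-/- axons (SD, n = 4). The mean of the 3 other +/+ axonal libraries was 149 ± 26.2 CPM (SD, n = 3).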

How the data were processed

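Axonal RNA of 4 +/+ and 4 Hnrnpr-/- motoneuron cultures was sequenced. The authors deposited estimated counts for 46320 genes, that is reads trimmed, aligned with STAR 2.7.2b to the RefSeq assembly of GRCm39 and counted on exons with featureCounts 1.6.4 in the reverse-strand setting, a read with several alignments or overlapping genes being split into fractions. The authors applied no normalization or filter to these values. Multi-copy families, pseudogenes and overlapping genes therefore share reads, and the axonal RNA was not checked for quality before amplification. The study names the libraries biological replicates.

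Counts were rounded and analysed in R 4.3.3. In edgeR 4.0.16, genes were filtered by expression per genotype, which left 18957 of the 31651 with a count in any axonal library, TMM factors scaled the libraries to CPM, and a robust quasi-likelihood model without covariates was fitted to the 8 axonal libraries alone and again without +/+ replicate 2, which left 19340 genes. P-values are two-sided, adjustment was by Benjamini and Hochberg across every gene tested, and intervals come from the quasi-likelihood t statistic. A model of 4 group means on all 16 libraries tested the difference between compartments. Code was tested on simulated counts.

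Genotype, compartment and replicate number were read from the sample titles. Genes named are Hnrnpr and Syncrip, genes past the adjusted threshold, the largest changes among genes with an unadjusted p under 0.05 in both fits and at least 5 CPM, the 2 most abundant members of each gene list and any member past that p in both fits, genes of at least 20 CPM most raised in +/+ replicate 2, and transcripts of proteins the study examined. Not every gene that this rule names is described. The comparison, the 59 gene lists and this rule were chosen with earlier results of these data known. The list of mitochondrially encoded mRNAs matched no gene, and 1 symbol of the nuclear noncoding RNAs was not matched. Alternatives were RLE factors, library totals, no filter, DESeq2 1.42.0 with and without shrinkage, limma 3.58.1 voom with library weights, all 16 libraries, the replicate number as a block, and each library left out. The alternatives without +/+ replicate 2, with RLE factors, DESeq2 or all 16 libraries, were chosen after seeing the data.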

Additional observations from a re-analysis of the deposited data

Results flagged for a closer look

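Of 192 groups of 4 axonal libraries checked over the genes and gene lists described, 19 had 1 library so far from the other 3 that its gap exceeded Dixon's 95% critical value. Chance alone gives about 1 in 20 for genes chosen without regard to their values. Some genes here were chosen for a high value in +/+ replicate 2 or named after their values were seen, so the 2 rates cannot be compared. Among single genes, 7 of the 11 flagged values were those of +/+ replicate 2. Hnrnpr had 451 CPM there against 122 to 174 CPM in the other +/+ libraries, the potassium channel subunit Kcnmb3 had 15.8 against 1.24 to 2.61 CPM, the mitochondrial rRNA mt-Rnr2 had 13717 against 1131 to 1359 CPM, and Rn7sk had 9.91 against 0.377 to 0.744 CPM. The other 3 were mt-Rnr1 at 1279.7 against 136 to 176 CPM, Plagl1 at 1369.6 against 65.7 to 142 CPM and Zfp932 at 264 against 25.4 to 44.6 CPM. These 3 and mt-Rnr2 were chosen for their ratio in that library, so that their flags follow in part from the choice. Kcnmb3 was named after its values were seen. In Hnrnpr-/- axons, the nuclear RNA Malat1 was low in replicate 2, at 406 CPM against 540.2 to 566 CPM, Rn7sk was high in replicate 4, at 6.01 CPM against 0.120 to 0.599 CPM, Cldn2 was high in replicate 3, at 2.52 CPM against 0.536 to 0.778 CPM, and the initiation factor Eif4g1 was high in replicate 3, at 328 CPM against 273 to 278 CPM.

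Among summed levels of gene lists, 5 of 8 such values were in +/+ libraries. The aminoacyl-tRNA synthetases were low in replicate 2, at 3601 CPM against 4357 to 4488 CPM. In replicate 3 the protocadherins were low, at 782 CPM against 1409 to 1509 CPM, and the targets of the integrated stress response were high, at 2728 CPM against 1990 to 2074 CPM. In replicate 4 the BMP, activin and TGF-β genes were low, at 1535 CPM against 1968 to 2032 CPM, and endothelial markers were high, at 263 CPM against 53.2 to 84.8 CPM. In Hnrnpr-/- axons, replicate 1 was high in Rab GTPases, at 6102 CPM against 4637 to 4823 CPM, and in sex-linked genes, at 91.6 CPM against 41.0 to 49.0 CPM. Microglia markers reached 847 CPM in Hnrnpr-/- replicate 4 against 21.5 to 77.3 CPM in the other 3.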

How the results depend on the processing

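Hnrnpr was lower in Hnrnpr-/- axons in each of the 16 alternatives, with log2 fold changes of -8.13 to -7.34 when single libraries were left out and -5.02 under DESeq2 with shrinkage. Leaving out single libraries gave 0 or 1 genes past the adjusted threshold, the 0 without Hnrnpr-/- replicate 2, and the fit of all 16 libraries gave 2, Hnrnpr and Gm13373. The number of genes with an unadjusted p under 0.05 moved more. It was 80 to 308 when single libraries were left out, with 80 without +/+ replicate 2, 308 without +/+ replicate 1, 295 without +/+ replicate 3, 252 without +/+ replicate 4 and 202 without Hnrnpr-/- replicate 1. It was 529 with no filter on low counts, 421 with DESeq2, 321 with DESeq2 and shrinkage and 759 with all 16 libraries. Of the settings added after the data were seen, DESeq2 without +/+ replicate 2 gave 278 and the other 15 libraries together 415. Limma voom gave 80 higher and 74 lower genes where edgeR gave 32 and 91. The cause of these shifts was not tested. The interaction with the compartment was refitted without +/+ replicate 2 and with the replicate block, and both fits gave 0 genes past the adjusted threshold.

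Libraries of the same replicate number had deviations from their group means that correlated at 0.04, 0.34, 0.70 and 0.04, in numerical order. Replicates 2 and 3 of +/+ correlated best with their own number, and replicates 1 and 4 with another. The sample labels tie the numbers to no shared culture, and the study states only in general that control and treated cells came from 1 batch, so the block was not used in the reported fit. With the replicate block, 181 genes had an unadjusted p under 0.05, 73 higher and 108 lower, Hnrnpr alone passed the adjusted threshold, and the interaction had 265 genes at an unadjusted p under 0.05. The common dispersion was 0.275 without the block and 0.178 with it. Of the genes described with an unadjusted p under 0.05 in the 8-library fit, those above it with the block were Itga9 at 0.93 (unadjusted p = 0.0606), Malat1 at -0.87 (unadjusted p = 0.117), Enah at -0.55 (unadjusted p = 0.0627) and Kcnmb3 at -1.39 (unadjusted p = 0.0982), and Col2a1 was -0.94 (unadjusted p = 0.330).

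Of 642 recomputed effects of the 41 genes given a fold change of their own, 530 kept direction and side of the unadjusted threshold, 64 fell short of it, 17 newly passed it and 31 turned in sign. All turned effects belonged to genes without an unadjusted p under 0.05. With single libraries left out, the log2 fold change ranged over -0.18 to 0.23 for Syncrip, -0.062 to 0.22 for Eef1a1, -0.87 to 0.41 for Stmn2, -0.089 to 0.13 for Tuba1a, -0.34 to 0.50 for Actb, -0.81 to 0.30 for Mapt, -0.63 to 1.16 for Ret, -2.11 to 0.30 for mt-Rnr2, -1.61 to 0.49 for mt-Rnr1, -2.72 to 1.76 for Rn7sk and -2.30 to 0.21 for Plagl1. An unadjusted p under 0.05 was kept in 3 of 8 such fits for Malat1, 2 for Enah, 4 for Kcnmb3, 1 for Grin3b and 5 for Itga9. Limma voom turned Syncrip to 0.31, Stmn2 to -0.55, Tuba1a to -0.052, Actb to 0.10, Ret to -0.48 and Rn7sk to 0.53. The replicate block turned Syncrip to 0.0099, Stmn2 to -0.40, Actb to 0.051 and Ret to -0.055, and no filter turned Actb to 0.00029. Of 928 recomputed list medians, 919 stayed within 1 SD of the reported value, and 9 moved, of microglia, erythroid and sex-linked genes and of long noncoding RNAs.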

Other observations

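The highest ratios of +/+ replicate 2 to the other +/+ libraries among genes of at least 20 CPM included that of mt-Rnr1, the mitochondrial 12S rRNA, with 136, 1279.7, 148 and 176 CPM in +/+ and 436, 105, 39.2 and 281 CPM in Hnrnpr-/- axons. The transcription factor Plagl1, an imprinted zinc finger protein, had 70.1, 1369.6, 142 and 65.7 CPM in +/+ and 129, 79.3, 182 and 38.5 CPM in Hnrnpr-/- axons. Zfp932, a zinc finger gene, had 44.6, 264, 26.1 and 25.4 CPM in +/+ and 38.0, 27.8, 23.1 and 29.8 CPM in Hnrnpr-/- axons. In each of these 3 genes +/+ replicate 2 was the highest of the 8 libraries. For mt-Rnr1 the log2 fold change turned from -1.01 (unadjusted p = 0.308) in the 8-library fit to 0.49 (unadjusted p = 0.505) in the 7-library fit, and for Plagl1 from -1.94 (unadjusted p = 0.0937) to 0.21 (unadjusted p = 0.699). For Zfp932 it was -1.60 (unadjusted p = 0.0642) and -0.11 (unadjusted p = 0.706).

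Several abundant RNAs of smooth muscle and matrix, chosen after their values were seen, were high in replicate 3 of both genotypes. Acta2, smooth muscle actin, had 1963, 999, 10330.0 and 3713 CPM in +/+ and 1846, 1791, 9300.1 and 2866 CPM in Hnrnpr-/- axons. Tagln, another smooth muscle protein, had 269, 215, 1102 and 593 CPM in +/+ and 297, 261, 858 and 467 CPM in Hnrnpr-/- axons. Sparc, a secreted matrix protein, had 2243, 1713, 5273 and 4015 CPM in +/+ and 2454, 1717, 4975 and 3608 CPM in Hnrnpr-/- axons. Replicate 3 was the highest library of either genotype for each of them. Other genes of these kinds went another way. Col1a2, Col3a1 and Myh11 were highest in replicate 4 of either genotype. The summed collagens and matrix genes were also highest there, at 16739 CPM in +/+ and 13348 CPM in Hnrnpr-/- axons.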
